A study of Mus musculus with 6 samples.

Results

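Chemokines are small secreted proteins that bind G protein-coupled receptors and direct the migration of leukocytes. They form CC and CXC families, named after the spacing of conserved cysteines, and are coded in gene clusters that arose by duplication. Activated B cells make several of them, among them Ccl3 and Ccl4, which attract T cells and myeloid cells, and Ccl22, which attracts Ccr4+ T cells. The genes described here are 9 chemokines chosen by symbol, 5 of the CC family (Ccl3, Ccl4, Ccl5, Ccl17 and Ccl22) and 4 of the CXC family (Cxcl2, Cxcl9, Cxcl10 and Cxcl16), of 23420 genes listed in each sample.

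The samples were B cells isolated with beads from spleens of wild-type (WT) BALB/c mice aged 7 to 11 weeks. Each sample of 10 M cells at 10 M per ml was either given 10 μg/ml of CpG ODN 1826, a synthetic DNA agonist of the endosomal receptor TLR9, or kept unstimulated, and RNA was collected at 4 h. There were 3 CpG-stimulated and 3 unstimulated samples. Replicates 1 and 2 of each group were labeled female and replicate 3 male, and 3 mice are named for both groups without a label tying a sample to a mouse, so p values measure the spread between these samples. The labels name no B cell subset.

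Values are log2 counts per 1 M reads (log2 CPM) after quantile normalization, which gives all samples nearly the same distribution and leaves the depth of each sample unknown. A gene without reads lies at -5.15, from which a common library size of 17.8 M reads follows. The value of 3 reads is -2.34 and that of 10 reads is -0.76, limits that cover counting error only. Values of rarely detected genes also shift together by replicate number, so that small differences near -5.15 are not reads. The fit in limma took the 11233 genes that reached 10 reads' worth in 3 or more samples, with Benjamini-Hochberg adjustment (FDR), and a gene was called at a log2 fold change (log2FC, CpG-stimulated minus unstimulated) over 1 or under -1 and an FDR under 0.05.

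Upon stimulation with CpG, 7 of the 9 chemokines rose and none fell, and the other 2 (Ccl17 and Cxcl9) were too low to be fitted. Among all genes tested, 15.8% were called higher and 15.3% lower. Ccl3 and Ccl4 were abundant in the unstimulated samples, which were also collected at 4 h, and were higher with CpG by a log2FC of 3.45 and 3.07. Ccl22 went from near the limit of detection to 58.7 reads' worth with a log2FC of 4.26. Cxcl16, Ccl5, Cxcl10 and Cxcl2 rose by a log2FC between 1.33 and 1.80 from low levels. Of the 7 fitted genes, 4 (Ccl5, Ccl22, Cxcl2 and Cxcl10) had fewer than 3 unstimulated samples over 10 reads and passed the filter through the stimulated samples, so the 7 calls are not a share of all chemokines. In 6 chemokines every CpG-stimulated sample lay above every unstimulated sample, an arrangement found upward in 39.1% and downward in 38.6% of all genes tested.

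**Figure D1:**
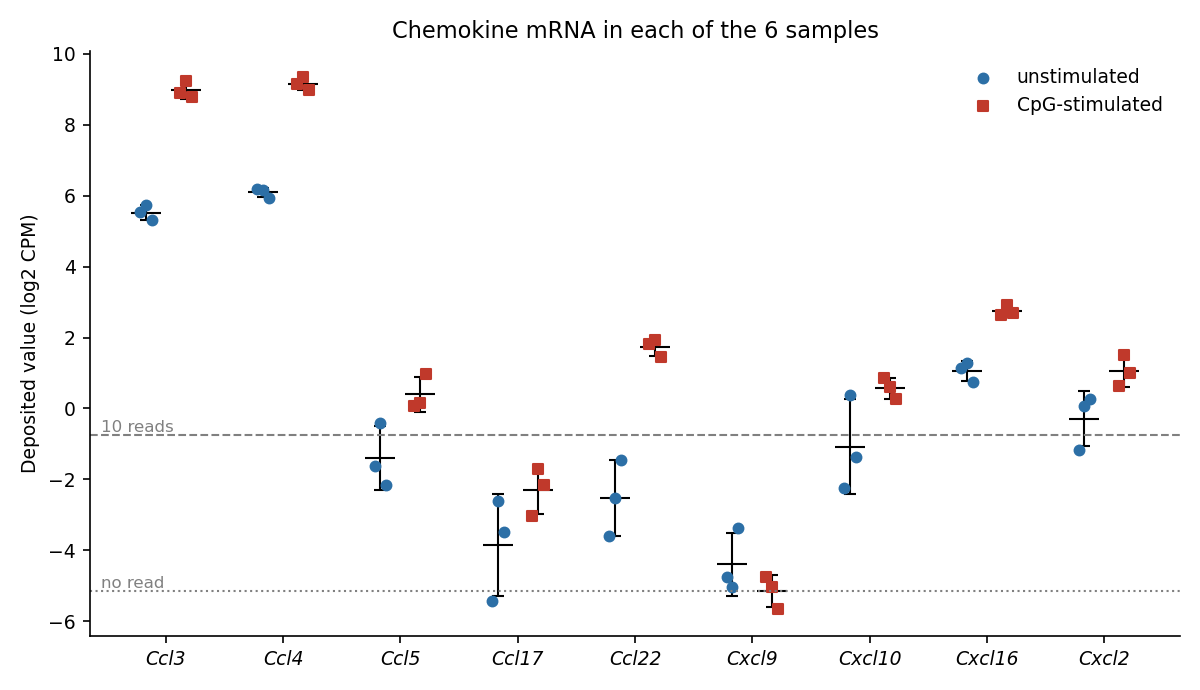
Deposited values (log2 CPM, vertical axis) of the 9 chemokines (horizontal axis) in the 3 unstimulated samples (circles) and the 3 CpG-stimulated samples (squares), with the mean and SD of each group in black and lines at 10 reads and at no read. Ccl3 and Ccl4 lie far above the others in both groups, Ccl22 shows the widest gap between groups on this scale, and Cxcl9 stays near the level of no read.

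The sequence before the transcription start was read for 6 of the 9 genes in RefSeq's promoter table (GRCm38.p6, the reference genome and not BALB/c). Promoters of Ccl4, Ccl5 and Cxcl16 are not shown. Those printed here are from Cxcl2, Cxcl10 and Ccl3, which rose, and from Cxcl9, the neighbor of Cxcl10, which stayed undetected. Cxcl2 and Cxcl10 hold matches to the κB decamer bound by NF-κB. Ccl3 and Ccl22 (not printed) rose by a larger log2FC than either and hold none in this window. Each printed sequence runs 5′ to 3′ on the strand of its gene over the 250 bases before the RefSeq start. GENCODE, used for the gene spans below, starts Cxcl2 and Ccl22 further upstream, inside their windows. Capitals mark matches to the κB decamer (Cxcl2, Cxcl10), to AP-1 sites of the letters TGANTCA (Cxcl10), to the pair of interferon-response half-sites GAAANNGAA (Cxcl9, Cxcl10, and Ccl3 on the opposite strand) and to TATAAA (Cxcl9).
Cxcl2, chr5:90903649-90903898, plus strand: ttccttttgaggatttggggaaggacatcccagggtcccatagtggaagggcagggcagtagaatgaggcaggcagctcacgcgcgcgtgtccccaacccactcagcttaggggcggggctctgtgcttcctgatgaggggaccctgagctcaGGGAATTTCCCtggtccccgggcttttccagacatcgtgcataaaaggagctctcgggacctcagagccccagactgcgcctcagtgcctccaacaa
Cxcl10, chr5:92348890-92349139, minus strand: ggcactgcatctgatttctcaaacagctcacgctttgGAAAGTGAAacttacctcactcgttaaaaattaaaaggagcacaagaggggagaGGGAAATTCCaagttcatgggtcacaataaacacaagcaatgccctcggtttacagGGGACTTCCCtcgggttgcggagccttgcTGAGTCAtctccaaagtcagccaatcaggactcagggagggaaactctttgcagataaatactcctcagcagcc
Cxcl9, chr5:92328080-92328329, minus strand: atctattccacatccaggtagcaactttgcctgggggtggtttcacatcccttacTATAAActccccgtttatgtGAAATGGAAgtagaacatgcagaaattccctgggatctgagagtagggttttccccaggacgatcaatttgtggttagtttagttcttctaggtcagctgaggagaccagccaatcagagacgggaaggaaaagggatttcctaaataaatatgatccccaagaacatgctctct
Ccl3, chr11:83649379-83649628, minus strand: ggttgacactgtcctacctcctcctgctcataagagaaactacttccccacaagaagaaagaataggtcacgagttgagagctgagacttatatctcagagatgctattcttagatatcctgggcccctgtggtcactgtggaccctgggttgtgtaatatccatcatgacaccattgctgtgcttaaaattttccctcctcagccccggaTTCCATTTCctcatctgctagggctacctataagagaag

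On either strand, the κB decamer was present in 3.9% of 32851 promoter windows of the same length, AP-1 in 6.75% and GAAANNGAA in 7.13%. The 2 κB matches of Cxcl10 began 159 and 103 bases before the start, and its AP-1 match began 74 bases before it. In Cxcl2 the κB match began 97 bases before the start and read as a match on both strands, shifted by 1 base. The remaining motifs were TATAAA on the sense strand (7.59% of promoters), TTCNNNGAA, the interferon-γ activation site (7.02%, with a match in Ccl17), and the cAMP-response site TGACGTCA (1.55%, with no match in the 6 genes). Ccl22 held no match to any of the motifs. These are matches of letters, and binding was not measured.

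Ccl3 and Ccl4, the macrophage inflammatory proteins 1α and 1β, lie 13.2 kb apart on chromosome 11 of GRCm38 (GENCODE annotation; Ccl3, chr11:83647844-83649355, minus strand; Ccl4, chr11:83662584-83664683, plus strand), each with 3 exons. Ccl3 had values of 8.89, 9.24 and 8.79 log2 CPM in CpG-stimulated replicates 1, 2 and 3, and of 5.54, 5.73 and 5.30 in unstimulated replicates 1, 2 and 3. The groups were far apart, and replicate 2 was the highest of each. The means were 8.97 ± 0.24 and 5.52 ± 0.21 log2 CPM (SD, n = 3), or 8920 against 816 reads' worth. By limma, Ccl3 had a log2FC of 3.45 with an SE of 0.13 (95% interval 3.16 to 3.74), a 10.9-fold increase with an FDR of 2.62e-08.

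Ccl4 measured 9.16, 9.34 and 8.99 log2 CPM in the CpG-stimulated samples and 6.18, 6.17 and 5.93 in the unstimulated samples. Again the groups did not overlap, and the spread within each was small. The group means were 9.16 ± 0.18 and 6.09 ± 0.14 log2 CPM (SD, n = 3). Its log2FC was 3.07 with an SE of 0.098 (95% interval 2.85 to 3.29), an 8.39-fold increase with an FDR of 1.40e-08 in limma. Sorted by log2FC from the highest, Ccl3 was number 71 and Ccl4 number 97 of the 11233 genes, and both stand among the more abundant genes in the plot of log2FC against mean level.

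**Figure D2:**
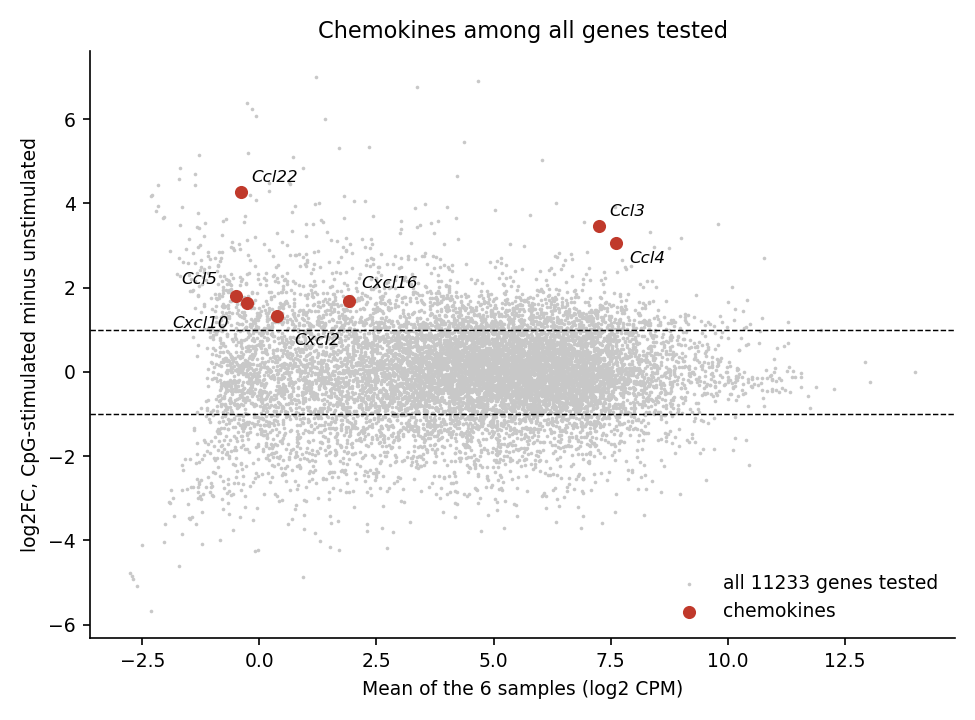
Log2FC (CpG-stimulated minus unstimulated, vertical axis) against the mean of the 6 samples (log2 CPM, horizontal axis) for the 11233 genes tested (gray) and the 7 chemokines among them (red), with dashed lines at a log2FC of 1 and -1. Ccl3 and Ccl4 stand at the right among abundant genes, and the other 5 chemokines have means under 2 log2 CPM.

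The balance between Ccl4 and Ccl3 was compared within samples. Within a sample, Ccl4 exceeded Ccl3 by 0.64, 0.44 and 0.63 on the log2 scale in the unstimulated samples and by 0.27, 0.10 and 0.20 in the CpG-stimulated samples. Ccl4 was thus above Ccl3 in 6 of 6 samples, and the gap was narrower in every stimulated sample than in any unstimulated one. The mean gap went from 0.57 ± 0.11 to 0.19 ± 0.087 (SD, n = 3), a difference of -0.38 with an exact two-sided permutation p of 0.1, the smallest that 3 samples against 3 can give. Between samples of the same number the gap differed by -0.37, -0.34 and -0.43 in replicates 1, 2 and 3. The spans of the 2 genes do not meet in GENCODE, whereas RefSeq gives Ccl4 a longer span that overlaps Ccl3 on the opposite strand. The strand setting of the counting is not given in the sources used here, so reads of such overlaps may be shared.

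Per length of mRNA, Ccl3 and Ccl4 made up nearly all chemokine transcripts. Over 40 chemokine ligands with a known length, they took 95.1%, 92.5% and 93.8% of the summed CPM per kb in the unstimulated samples and 98.9%, 98.9% and 98.7% in the CpG-stimulated samples. The sum itself was 175 ± 19.6 CPM per kb in the unstimulated samples and 1551 ± 220 in the CpG-stimulated samples (SD, n = 3). Ccl3 alone went from 34.4% ± 1.33 to 42.5% ± 1.45 of the sum, and Ccl4 from 59.4% ± 2.49 to 56.3% ± 1.48. The 9 chemokines together held 95.7% ± 0.63 of the sum in unstimulated samples and 99.5% ± 0.040 in stimulated samples.

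Ordered by level per kb of mRNA (log2 CPM per kb) in the CpG-stimulated samples, Ccl4 (9.76) and Ccl3 (9.36) were followed by Cxcl16 (1.32), Ccl5 (1.31), Cxcl2 (0.90), Ccl22 (0.59), Cxcl10 (0.44), Ccl17 (-1.34) and Cxcl9 (-6.68). From Cxcl16 to Cxcl10, neighbors in that order differed by less than the larger of their SDs. In unstimulated samples the order per kb was Ccl4 (6.69), Ccl3 (5.91), Cxcl16 (-0.37), Cxcl2 (-0.44), Ccl5 (-0.49), Cxcl10 (-1.21), Ccl17 (-2.88), Ccl22 (-3.67) and Cxcl9 (-5.92). There, neighbors from Cxcl16 to Cxcl10 again lay within the larger SD, as did Ccl17 and Ccl22. Ccl22 changed place most, from just above Cxcl9 to the range of Cxcl2 and Cxcl10. The unstimulated means of Ccl17, Ccl22 and Cxcl9 were under 3 reads, so their places there rest on poorly measured values and on mRNA length. Before division by length, Ccl22 lay above Ccl17 in the unstimulated samples.

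Ccl22 and Ccl17 are the ligands of Ccr4, a receptor of regulatory and type 2 helper T cells, and lie 58.8 kb apart on chromosome 8 (Ccl22, chr8:94745590-94751699; Ccl17, chr8:94810453-94812036; both on the plus strand with 3 exons). Ccl22 had values of 1.82, 1.94 and 1.44 log2 CPM with CpG and of -3.60, -2.52 and -1.45 without it. All 3 stimulated samples were over 10 reads and none of the unstimulated ones was, 2 of which were under 3 reads. The means were 1.74 ± 0.26 and -2.52 ± 1.08 log2 CPM (SD, n = 3), the first of which corresponds to 58.7 reads' worth and the second to under 3 reads. In limma the log2FC of Ccl22 was 4.26 with an SE of 0.51 (95% interval 3.12 to 5.40) and an FDR of 3.11e-05. As its unstimulated mean lies under the level of 3 reads, the size of this change depends on values that cannot be measured well, and measured from the 3-read level the CpG mean was 4.08 higher on the log2 scale. On log2(CPM + 1), which shrinks changes of low genes, the log2FC of Ccl22 was 1.85, below those of Ccl3 (3.42) and Ccl4 (3.05), and on log2(CPM + 0.1) it was 3.59, so the order of these 3 genes depends on the scale.

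Ccl17 stayed low. It measured -3.04, -1.71 and -2.16 log2 CPM in the CpG-stimulated samples and -5.44, -2.62 and -3.47 in the unstimulated samples. No sample reached 10 reads, the groups overlapped, and an exact two-sided permutation test gave a p of 0.2. The stimulated sample was higher in 3 of 3 pairs of the same replicate number, but a change of Ccl17 was not detectable at these levels.

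Ccl5 (RANTES), a ligand of Ccr1 and Ccr3, lies on chromosome 11 (chr11:83525778-83530518, minus strand). Its values were 0.08, 0.16 and 0.96 log2 CPM with CpG and -1.63, -0.41 and -2.15 without. The groups did not overlap, but the highest unstimulated sample, replicate 2, came near the 2 lower stimulated ones. With means of 0.40 ± 0.49 and -1.40 ± 0.89 log2 CPM (SD, n = 3), or 22.9 against 6.24 reads' worth, the log2FC was 1.80, with an SE of 0.49 (95% interval 0.70 to 2.90) and an FDR of 0.00735 in limma. The Ccl5 level per kb was far under that of Ccl3 and Ccl4 in both groups.

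Cxcl16, the ligand of Cxcr6, is made as a membrane-bound protein that is shed by the proteases Adam10 and Adam17 (chr11:70453983-70459984, minus strand, 5 exons). It measured 2.64, 2.93 and 2.70 log2 CPM in stimulated samples and 1.15, 1.30 and 0.75 in unstimulated ones. All 6 samples were over 10 reads, and the groups did not overlap. The means were 2.76 ± 0.15 and 1.06 ± 0.28 log2 CPM (SD, n = 3). The log2FC of 1.69, with an SE of 0.19 (95% interval 1.27 to 2.12), was a 3.23-fold increase with an FDR of 1.86e-05 in limma. Cxcl16 shares 552 exonic bases with Zmynd15 on the opposite strand, and Zmynd15 rose as well, from -2.47 to -0.05 log2 CPM (log2FC 2.42, FDR 0.00195, limma). At those levels Zmynd15 had 2.71 and 16.6 reads' worth, against 36.7 and 120 for Cxcl16, and the share of reads that the pair could exchange was not tested. Zmynd15 passed the filter through the stimulated samples alone.

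Cxcl2, a ligand of Cxcr2 that draws in neutrophils, lies on chromosome 5 (chr5:90903871-90905938, plus strand). Its values were 0.63, 1.51 and 0.99 log2 CPM with CpG and -1.18, 0.07 and 0.26 without. The groups did not overlap, with the lowest unstimulated value in replicate 1. Means of 1.05 ± 0.44 and -0.29 ± 0.78 log2 CPM (SD, n = 3) gave a log2FC of 1.33, with an SE of 0.41 (95% interval 0.42 to 2.25) and an FDR of 0.0133 in limma. Without unstimulated replicate 1 the log2FC was 0.88 and Cxcl2 was no longer called.

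Cxcl10 and Cxcl9 are interferon-inducible ligands of Cxcr3, a receptor of activated T cells and NK cells, and lie 18.6 kb apart on chromosome 5 (Cxcl10, chr5:92346638-92348889; Cxcl9, chr5:92321347-92328079; both on the minus strand with 4 exons). Cxcl10 measured 0.85, 0.59 and 0.26 log2 CPM in the CpG-stimulated samples and -2.24, 0.38 and -1.37 in the unstimulated samples. Of the called chemokines it was the one whose groups overlapped, because unstimulated replicate 2 lay above stimulated replicate 3. The means were 0.56 ± 0.30 and -1.08 ± 1.33 log2 CPM (SD, n = 3), and the log2FC was 1.64 with an SE of 0.58 (95% interval 0.34 to 2.95) and an FDR of 0.0267 in limma. An exact two-sided permutation test on the 6 values gave a p of 0.2. The call was lost without CpG replicate 1, unstimulated replicate 1 or unstimulated replicate 3 (FDR 0.0708, 0.0896 and 0.0771 in limma), and the log2FC ranged from 1.06 without unstimulated replicate 1 to 2.37 without unstimulated replicate 2. Within samples of the same number, Cxcl10 was higher with CpG by 3.09, 0.21 and 1.63 on the log2 scale in replicates 1, 2 and 3. Its exons share 133 bases with Art3 on the opposite strand, which was under 3 reads in all 6 samples.

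Cxcl9, in contrast, was not detected. Its values were -4.77, -5.03 and -5.66 log2 CPM with CpG and -4.77, -5.03 and -3.38 without, all under 3 reads. Replicates 1 and 2 had the same value in both groups, away from the level of no read, as the shift by replicate number leaves them. An exact two-sided permutation test gave a p of 0.5.

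**Figure D3:**
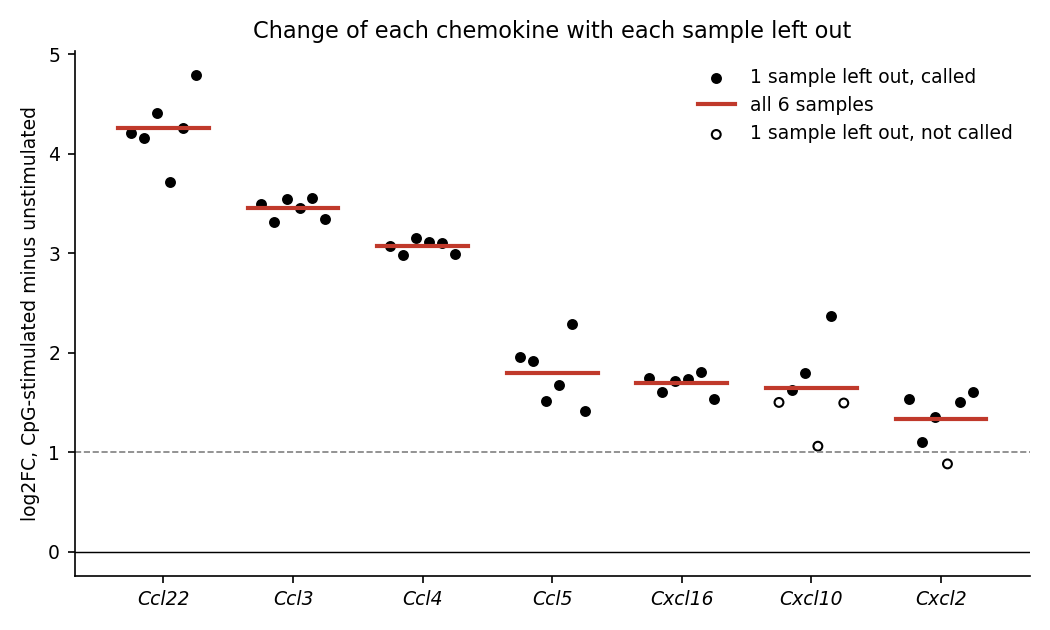
Log2FC (CpG-stimulated minus unstimulated, vertical axis) of the 7 fitted chemokines (horizontal axis) with all 6 samples (red line) and after removal of 1 sample at a time (points, filled where the gene was still called at a log2FC over 1, the dashed line, and an FDR under 0.05). Cxcl10 lost its call in 3 of 6 fits and Cxcl2 in 1 of 6, and the other 5 chemokines kept theirs in every fit.

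Outside the 9 genes, few chemokine ligands were measurable. Of 32 other ligands, 10 were exactly at the no-read level in every sample, 3 more (Ccl7, Ccl27a and Cxcl14) had equal values in both groups for each number with a mean within 0.001 of that level, 25 in all had a mean under 3 reads and 4 could be fitted. Cxcl1, which shares the receptor Cxcr2 with Cxcl2 and lies 10.8 kb from it, rose from -2.17 ± 0.12 to 0.52 ± 0.58 log2 CPM (log2FC 2.69, SE 0.41, FDR 0.000189, limma). Ccl25, the ligand of Ccr9, rose from -1.31 ± 0.11 to 0.44 ± 0.13 log2 CPM (log2FC 1.75, SE 0.32, FDR 0.000583). Cxcl1 and Ccl25 had no unstimulated sample over 10 reads and passed the filter through the stimulated samples alone. Pf4, a chemokine of platelet granules, fell from 0.79 ± 0.26 to -0.62 ± 0.65 log2 CPM (log2FC -1.41, SE 0.37, FDR 0.00562). Ppbp, likewise of platelets, had a log2FC of -0.83 and an FDR of 0.0410 and was not called.

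Of 9 receptors of these chemokines, 2 could be fitted, of which 1 fell and none rose. Ccr1, which binds Ccl3 and Ccl5, had values of -0.31, 0.65 and -0.94 log2 CPM with CpG and of 3.29, 3.36 and 2.99 without, a 10.7-fold decrease (log2FC -3.41, SE 0.35, FDR 9.03e-06, limma). Ccl3 and Ccl5 thus rose in the same samples in which Ccr1 fell. Cxcr6, the receptor of Cxcl16, had a log2FC of 0.31 (95% interval -0.57 to 1.18, FDR 0.499). Ccr3, Ccr4, Cxcr1, Cxcr2, Cxcr3, Ackr1 and Ackr2 were too low to be fitted.

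**Figure D4:**
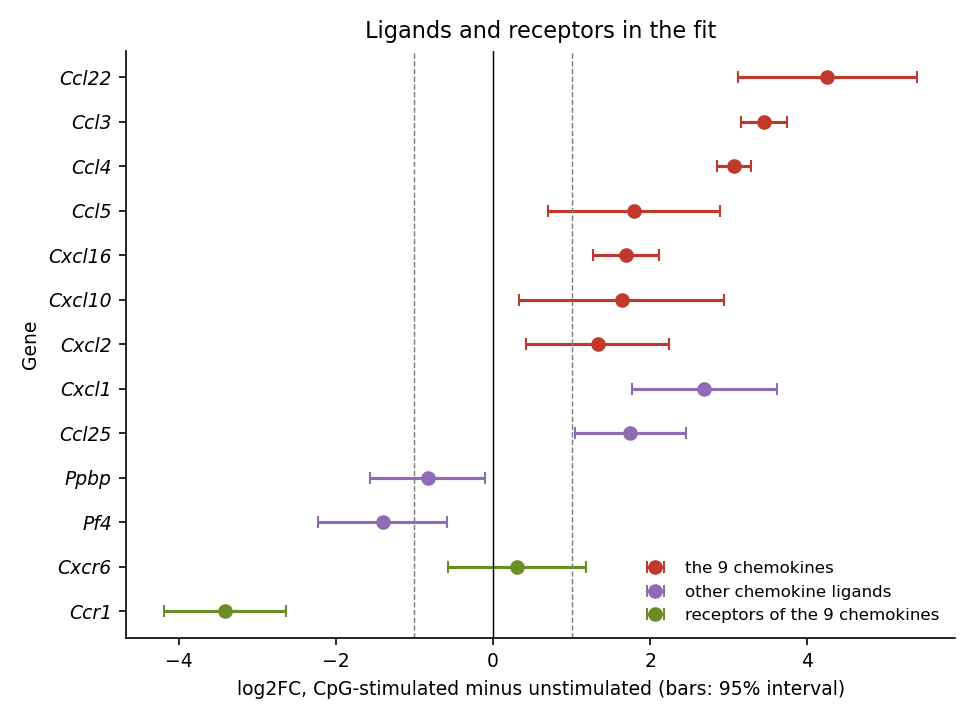
Log2FC (CpG-stimulated minus unstimulated, horizontal axis) with its 95% interval (bars) for the fitted chemokines (red), other ligands (purple) and receptors (green), with dashed lines at -1 and 1. Intervals are narrow for Ccl3 and Ccl4 and wide for Ccl22, Ccl5 and Cxcl10, and Ccr1 lies at the opposite end from the ligands.

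Of 16 genes that code transcription factors, RNA regulators and proteases acting on chemokines, all could be fitted, 3 rose, 4 fell and 9 were not called. Among all genes tested, 15.8% were called higher and 15.3% lower, so these counts are not a result about the list. Jun, a subunit of AP-1, rose by a log2FC of 3.32 (SE 0.12), Nfkb1, the NF-κB p50 precursor, by 1.71 (SE 0.11) and Irf8, an interferon regulatory factor of B cells and myeloid cells, by 1.65 (SE 0.069), with FDRs in limma of 1.86e-08, 3.05e-07 and 4.05e-08. Fos, the partner of Jun, had a log2FC of -1.99 (SE 0.15), and Rel, the NF-κB subunit c-Rel, of -1.21 (SE 0.074), with FDRs of 1.13e-06 and 2.67e-07. Adam10 fell as well (log2FC -1.33, SE 0.060, FDR 5.19e-08), as did Dpp4, a peptidase that trims the amino terminus of chemokines such as Cxcl10 and Ccl22 (log2FC -1.24, SE 0.093, FDR 1.06e-06). Adam17 had a log2FC of -0.30 (FDR 0.00767, limma) and was not called, as its log2FC did not pass -1. Zfp36 codes tristetraprolin, a protein that destabilizes cytokine mRNA. It had a log2FC of -0.89 (FDR 7.25e-05, limma) and was likewise not called for its log2FC alone. Relb (-0.46), Irf7 (-0.26), Rela (-0.18), Irf1 (-0.18), Irf3 (-0.07), Irf5 (-0.01) and Stat6 (0.24) had log2FCs within 0.5 of zero. Of these, Relb, Rela and Stat6 had an FDR under 0.05.

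For each fitted chemokine, the 2 genes were found whose values, centered on their own mean, had the smallest root mean square (RMS) difference over the 6 samples, on the log2 scale. For Ccl3 these were Jun (0.17) and Krt222 (0.20), and for Ccl4 they were Itln1 (0.061) and Plxna1 (0.11). Cxcl16 was nearest to Nmrk1 (0.10) and Abtb2 (0.12), and Ccl5 to Tspan33 (0.18) and Kcns1 (0.26). The distances were larger for Ccl22 and Cxcl10. Ccl22 was nearest to Dnm3 (0.46) and Cebpd (0.47), Cxcl10 to Muc13 (0.46) and Hectd2 (0.48), and Cxcl2 to 3110070M22Rik (0.24) and Dqx1 (0.25).

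Myeloid cells make many of the same chemokines, so markers of other cells were set beside these values. In bulk samples, fewer cells of a type and less RNA per cell cannot be told apart. All 6 B cell markers were over 10 reads, with summed levels of 2264 to 2603 CPM with CpG and 3459 to 4080 without, and Cd79b, the most abundant, had means of 8.90 and 10.06 log2 CPM. Of 10 macrophage and monocyte markers, 6 had a mean over 10 reads, and they summed to between 27.0 and 33.8 CPM with CpG and between 22.8 and 27.9 without. Ly6c2, the highest over all 6 samples, measured 2.85 against 3.15 log2 CPM, Cd68 rose (log2FC 1.11, FDR 1.74e-05, limma), Csf1r and Cd14 fell (log2FC -1.61 and -1.73, FDR 0.0180 and 0.00430), and C1qa, C1qb and Mertk had means under 3 reads. Csf1r and Cd14 had no CpG-stimulated sample over 10 reads and passed the filter through the unstimulated samples alone. Markers of conventional dendritic cells summed to between 89.9 and 105 CPM with CpG and between 30.5 and 37.9 without. That sum was carried by Zbtb46 and Flt3, which rose by a log2FC of 1.62 and 1.33, whereas the means of Itgax, Xcr1, Clec9a and Cd209a were under 10 reads.

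Plasmacytoid dendritic cell markers summed to between 23.8 and 25.1 CPM with CpG and between 36.2 and 40.3 without, nearly all of it from Pacsin1, as Siglech, Klk1 and Cox6a2 had means under 3 reads. T cell markers summed to between 0.50 and 0.63 CPM with CpG and between 0.41 and 0.60 without, with Cd3g the highest. Markers of NK cells reached 1.53 to 2.61 against 3.09 to 3.57 CPM, of which Prf1, the most abundant over all 6 samples, fell (log2FC -1.57, FDR 0.000231, limma). Klrb1c went the other way, with means of -0.13 log2 CPM with CpG and -4.65 without and no overlap between groups, but only 2 samples were over 10 reads and it was not fitted. Those of neutrophils (4 of 5 listed) reached 0.23 to 0.66 against 0.60 to 1.60 CPM, with S100a9 the highest over all 6 samples and S100a8 the highest in the unstimulated group. Erythroid markers were between 384 and 4912 CPM with CpG and between 404 and 3845 without, led by the globin gene Hbb-bs and highest in replicate 2 of both groups. Unstimulated replicate 2, which had the highest unstimulated Cxcl10 and Ccl5, also had the highest unstimulated Cd14, at 1.20 log2 CPM. Lyz2 and Itgam were likewise highest there, as were C1qa and Mertk at values under 10 reads. In contrast, Csf1r, Adgre1 and C1qb (under 10 reads) were highest in unstimulated replicate 3 and Cd68 and Ly6c2 in replicate 1. The macrophage and monocyte markers as a list summed to 22.8, 27.2 and 27.9 CPM in unstimulated replicates 1, 2 and 3. Neutrophil markers summed to 0.60, 1.60 and 0.87 CPM in the same samples, highest in replicate 2. What part these cells had in the chemokine values was not tested. Without both libraries of number 2, the log2FC was 2.36 for Cxcl10 (FDR 0.00389), 2.41 for Ccl5 (FDR 0.00367) and 1.28 for Cxcl2 (FDR 0.0504, limma, no longer called).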

How the data were processed

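RNA-seq values of 6 samples were used, 3 CpG-stimulated and 3 unstimulated, with groups and replicate numbers taken from the labels. The authors prepared libraries with a TruSeq kit and aligned reads to mm10 (GRCm38). The submitters' processing notes name FastQC 0.11.7, Trim Galore 0.6.5, STAR 2.6.1a, featureCounts from Subread 2.0.1, and limma. The deposited values are log2 CPM after quantile normalization and voom, with an offset of 0.5 reads, so no count test was run. Library size was computed from the most common value, the level of no read.

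The fit was made in R 4.3.3 with the lmFit and eBayes functions of limma 3.58.1, with a variance trend and without a block, over genes with 10 reads' worth in at least 3 samples. The procedure was tested on simulated data. Deviations from the group means correlated across genes at 0.435, 0.224 and 0.300 for samples of the same replicate number, and between -0.281 and 0.028 for the others. Samples of the same number were thus more alike, but these values do not settle whether the numbers pair the samples. Sex goes with number, as replicate 3 was male in both groups, and a shift by number in the deposited values can also give this. The shift was seen as equal values off the no-read level in 3776 of 9655 genes under 3 reads throughout.

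The chemokines and gene lists were chosen with earlier results of these data known. All 9 chemokines were named, with up to 6 called genes of each related list, uncalled ones with a mean of at least 5, the highest marker of each cell type, and the 2 nearest genes. Ppbp, Cxcr6, Irf7, genes that overlap a chemokine, unfitted receptors and further markers were named after their values were seen. Older symbols were matched through the RefSeq table. Lengths and positions are from GENCODE M21, with the longest consensus coding transcript of a gene taken as its mRNA. Alternatives covered the filter, the scale, the variance trend, centering, the block, a test against a log2FC of 1, and each sample left out. Some genes are not reported here.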

Additional observations from a re-analysis of the deposited data

How the results depend on the processing

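Ccl3, Ccl4, Ccl22 and Cxcl16 were called higher under every alternative in which they could be fitted, with log2FCs with 1 sample left out between 3.31 and 3.55, 2.98 and 3.16, 3.72 and 4.79, and 1.53 and 1.81. A filter of 10 reads' worth in every sample left 3 chemokines, all called, as Ccl5, Ccl22, Cxcl2 and Cxcl10 could no longer be fitted. Among all genes, 1472 were called higher and 1424 lower under this filter. The same filter left 0 other ligands called higher, 0 lower and 0 receptors lower, as Ccr1 could no longer be fitted. On log2(CPM + 1), which shrinks changes of low genes, 1331 genes were called higher and 1351 lower. Among them were 4 chemokines and 1 other ligand, all higher. The log2FCs of Ccl5 (0.72), Cxcl10 (0.66) and Cxcl2 (0.73) were under 1, and 0 other ligands were lower. Tested against a log2FC of 1 (limma's treat), 914 genes were higher and 968 lower, among them 4 chemokines, 1 other ligand higher and 0 lower. The FDRs under treat were 0.307 for Ccl5 (log2FC 1.80), 0.597 for Cxcl10 (1.64) and 0.812 for Cxcl2 (1.33). Cxcl10 also lost its call without the filter (log2FC 1.64, FDR 0.0714) and without the variance trend (1.64, FDR 0.0600), and its FDR over 14 alternatives lay between 0.000949 and 0.597, against 0.00156 to 0.307 for Ccl5 and 0.00215 to 0.812 for Cxcl2. With 1 sample left out, the log2FC was between 1.42 and 2.29 for Ccl5, which kept its call, between 1.06 and 2.37 for Cxcl10, and between 0.88 and 1.60 for Cxcl2. Without both libraries of number 2, chosen after seeing the data for their erythroid RNA, Cxcl2 had a log2FC of 1.28 (FDR 0.0504). Leaving out 1 sample gave 2 other ligands lower without unstimulated replicate 3. Causes were not tested beyond what these settings themselves change.

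With the replicate number as a block (replicate block), no chemokine, other ligand or receptor changed its call count, 1784 genes were higher, and Ccl3 kept a log2FC of 3.45 (FDR 1.68e-13). Without a filter, Ccl17 (log2FC 1.54, FDR 0.141) and Cxcl9 (log2FC -0.76, FDR 0.259) were not called. Ccl17, Cxcl9 and the unstimulated level of Ccl22 were all near or under 3 reads, too low to be measured well. Whether depth or low expression set these levels was not tested.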
